A study of Mus with 6 samples.

Results

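Serotonin receptor genes were followed in the basolateral amygdala, where sensory and cortical signals enter the amygdala. The set was 10 genes of 54532 in the deposited gene table, taken by name: Htr1a, Htr1b, Htr1f, Htr5a, Htr2a, Htr2c, Htr4, Htr6, Htr7 and Htr3a. The samples were 3 RNA-seq libraries of Cntnap4 knockout mice (KO; genotype label CNTNAP4-KO, CNTNAP4-/- in the design text) and 3 of wild-type mice (WT), all labelled female. The labels give no strain, age, allele or treatment, and do not say whether each library came from 1 animal, so p-values measure the spread between these libraries. Values are FPKM, the fragments assigned to a gene divided by its length and by a library size, which here was not the summed reads. FPKM are per length, which allows a rough comparison of levels between genes, as each gene has only 1 deposited length.

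Serotonin reaches the amygdala from neurons of the raphe nuclei, and its effect on a target cell is set by the receptors that the cell carries. Receptors of the Htr1 and Htr5 subfamilies couple to Gi and Go proteins, which lower cyclic AMP and open GIRK potassium channels. Htr2 receptors couple to Gq and phospholipase C, and Htr4, Htr6 and Htr7 couple to Gs and raise cyclic AMP. Htr3a differs from the rest in kind: it encodes a subunit of a cation channel that serotonin opens directly. Serotonin in the basolateral amygdala is known for its part in anxiety and fear learning, and the series concerns fear memory.

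Reads recovered from the FPKM summed to between 15933029 and 17789798 per library. Cntnap4, the gene named in the genotype label, stood at 1.08, 1.19 and 1.28 FPKM in KO against 3.53, 3.90 and 2.15 in WT (log2 fold change -0.92, SE 0.18, limma adjusted p = 0.302). All KO libraries were thus below all WT libraries, in the direction of the labels. Reads of the gene remained in KO (111, 130 and 132), at a ratio of mean FPKM of 0.37. Some libraries stood apart in markers of neighbouring tissue. Summed over 10 striatal projection neuron markers, the level was 377 FPKM in KO3 and 893 in WT3, against 61.8 to 211 in the other libraries. WT1 was lowest in the 7 oligodendrocyte markers (205 FPKM summed, against 413 to 631 in the others). Summed levels of 10 hypothalamic markers were 2.21 to 4.12 FPKM in KO and 5.39 to 37.1 in WT, with 37.1 in WT1. Markers of the basolateral projection neuron were present in all libraries, with Slc17a7 at 201 to 364 FPKM in KO and 208 to 285 in WT.

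All 10 receptor genes had reads in all 6 libraries, and none was abundant. Their FPKM summed to 30.8, 33.3 and 37.6 in KO1 to KO3 and to 46.7, 36.3 and 31.0 in WT1 to WT3, so the totals overlapped. The order of levels differed between the groups, chiefly through Htr2c. In KO it ran Htr2a, Htr5a, Htr1a, Htr3a, Htr7, Htr2c, Htr6, Htr1b, Htr1f and Htr4, with means between 7.71 and 0.405 FPKM. Neighbours in that order did not differ beyond their ranges, except that Htr5a lay above Htr1a, Htr1a above Htr3a, and Htr1f above Htr4 in all KO libraries. In WT the order was Htr2c, Htr2a, Htr1a, Htr3a, Htr5a, Htr6, Htr7, Htr1b, Htr4 and Htr1f, with means between 9.37 and 0.667 FPKM. There the one step between neighbours whose ranges were apart was that from Htr1b to Htr4. The plot of values by library shows the spread behind these orders.

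**Figure D1:**
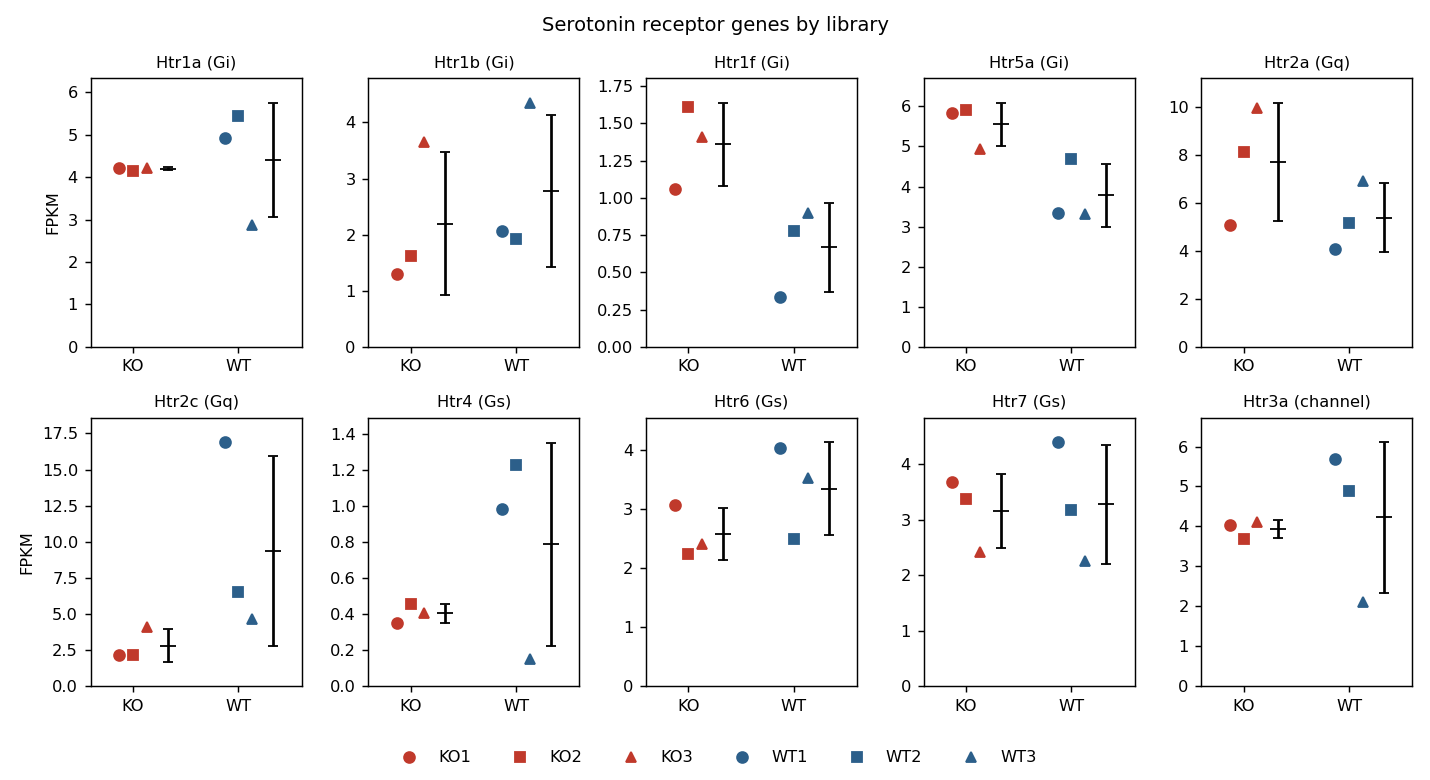
FPKM (y axis, linear, starting at 0) of the 10 receptor genes in each library, with 3 KO libraries left of 3 WT libraries, and the mean with SD beside them. Htr2c is lower, and Htr5a and Htr1f are higher, in all KO libraries than in any WT library, and the other 7 genes overlap; Htr2c has its highest value, 16.9 FPKM, in WT1.

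KO was compared with WT by limma over the 13087 genes with a mean of at least 1 FPKM, on log2(FPKM + 1), a scale that understates the change of low genes. Of the receptors, 9 passed that filter. Htr1f passed it narrowly, at a mean of 1.01 FPKM and through its KO values, and Htr4 at 0.598 did not. None of the 9 passed an adjusted p of 0.05 (0 of 9, against 0.00764% of all genes tested, or 1 gene, and 0 genes with the replicate numbers as a block). With voom on the recovered reads 0 receptors passed as well. At an unadjusted p under 0.05 there were 3 of 9, against 14.3% of all genes. Htr5a and Htr1f were higher in KO (2 of 9, against 7.05% of all genes), and Htr2c was lower (1 of 9, against 7.25%). Htr1f is among the 9 through its KO values, so the count of higher genes partly follows from the filter. Fitted with no filter, which also admits Htr4, Htr5a, Htr1f and Htr2c were again the 3 under 0.05. The same 3 had no overlap between the groups, against 22.0% of all genes tested (11.9% higher and 10.1% lower in KO). Without KO2 the count at an unadjusted p under 0.05 was 1 (Htr5a), without WT3 it was 5 (with Htr2a and Htr3a added), and without WT1 and without KO3 it was 2 (Htr2c and Htr5a). Without KO1 it was 3, with Htr2a in place of Htr2c, and without WT2 it was 4, with Htr6 added. The smallest exact permutation p that 3 libraries against 3 allow for any of these genes is 0.1.

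**Figure D2:**
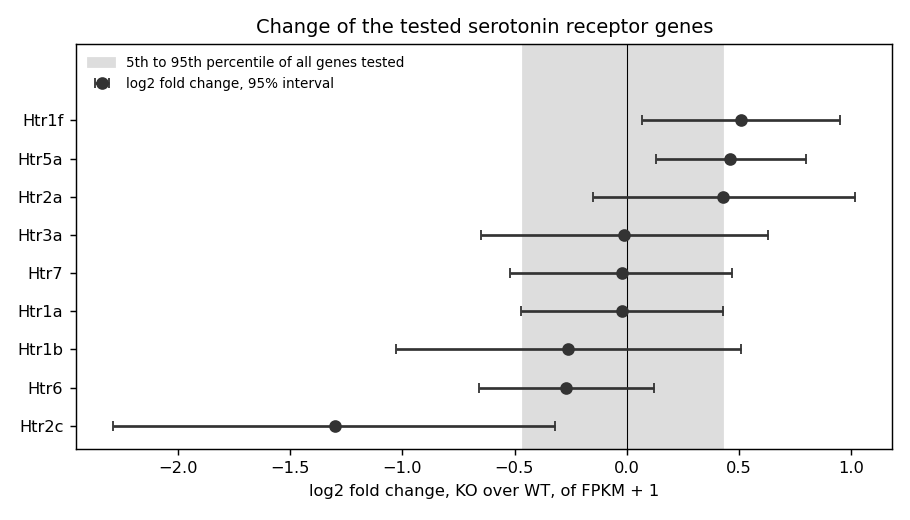
Log2 fold change of KO over WT for the 9 tested receptor genes (x axis, on FPKM + 1), with limma's 95% interval unadjusted for the number of genes, and the range from the 5th to the 95th percentile of all 13087 genes in grey (-0.46 to 0.43). Htr2c at -1.30 lies farthest from 0, Htr1f at 0.51 and Htr5a at 0.46 lie just above the grey range, and the intervals of the other 6 genes include 0.

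The Gq-coupled pair held the lowest and one of the higher fold changes of the set. Htr2c encodes a receptor of limbic, hypothalamic and choroid plexus cells whose transcript is edited in the stretch for an intracellular loop. The gene (ENSMUSG00000041380) lies on chromosome X from 146962513 to 147197277 (GRCm38). It was at 2.14, 2.18 and 4.10 FPKM in KO and at 16.9, 6.51 and 4.68 in WT. The highest KO library, KO3, and the lowest WT library, WT3, lay close together, while WT1 stood well above the other WT libraries. The means were 2.81 ± 1.12 and 9.37 ± 6.59 FPKM (SD, n = 3 each), a ratio of 0.299. The log2 fold change was -1.30 (SE 0.42, 95% interval -2.29 to -0.32, unadjusted p = 0.0167, limma adjusted p = 0.303). Between 328 and 2950 recovered reads per library stood behind it, and in each KO library Htr2a had more. Without WT1 the log2 fold change was -0.82, and it stayed negative in all 19 alternatives, between -1.88 and -0.82.

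WT1, the library with the highest Htr2c, also held the highest value of 5 of the 10 hypothalamic markers (Avp, Oxt, Hcrt, Sim1 and Otp). The other 5 peaked elsewhere: Trh in WT2, Pomc and Nkx2-1 in WT3, and Pmch and Agrp in KO2. The peptide gene Trh was at 0.308 to 2.02 FPKM in KO and at 18.7, 21.6 and 1.28 in WT. Otp, a transcription factor of hypothalamic neurons, was at or near 0 in KO (0 to 0.040 FPKM) and at 2.19, 0.520 and 0.0206 in WT. Choroid plexus, where Htr2c is known to be high, had 11 of its 12 markers highest in WT1. The 12 markers summed to 24.9, 4.62 and 22.1 FPKM in KO and to 53.3, 17.5 and 21.4 in WT, most of it Ttr, the thyroid hormone carrier, at its highest in WT1 with 45.0 FPKM. The remaining choroid plexus markers were at most 1.82 FPKM, reached by Clic6 in WT1. Clic6 was at 0.762, 0.236 and 0.915 FPKM in KO and at 1.82, 0.941 and 1.38 in WT, without overlap. Folr1 was at 0 to 0.159 FPKM in KO and at 0.0815 to 0.512 in WT. Kcne2 alone on the list had a higher mean in KO (0.170 FPKM, against 0.0845 in WT). Averaged over their genes, the meningeal, hippocampal and central amygdala lists were also highest in WT1. Their deviations from the mean of the 6 libraries, on log2(FPKM + 1), were 0.97, 0.46 and 0.33. The central amygdala list was nearly as high in WT3 (0.27). Its genes Crh, Pdyn and Sema3c were lowest in WT1, as were Bok, Lct and Zbtb20 of the hippocampal list. Wfs1, highest in WT1, is on both of these lists. The basolateral projection neuron and oligodendrocyte lists were among those lowest in WT1 (-0.42 and -1.03). The part of these tissues in the Htr2c difference was not tested. Fewer cells with the transcript and less transcript per cell cannot be told apart in bulk tissue.

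Htr2a encodes the receptor through which classical psychedelics act, found on cortical and amygdalar pyramidal neurons and some interneurons. The gene (ENSMUSG00000034997) lies on chromosome 14 from 74640840 to 74709494. It was at 5.08, 8.12 and 9.94 FPKM in KO and at 4.06, 5.15 and 6.92 in WT, so the groups overlapped, although each KO library was above the WT library of the same number. The log2 fold change was 0.43 (SE 0.25, 95% interval -0.15 to 1.02, unadjusted p = 0.123, limma adjusted p = 0.442). With the replicate numbers as a block the unadjusted p was 0.0081, and the adjusted p of 0.221 still did not pass. Without KO1 the log2 fold change was 0.67, and without KO3 and without WT1 it was 0.25 and 0.28.

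Set against each other within a library, Htr2a and Htr2c stood in a different order in most libraries of the groups. The ratio of Htr2a to Htr2c, chosen after the values were seen, was 2.37, 3.73 and 2.42 in KO and 0.24, 0.791 and 1.48 in WT. Htr2a was thus the higher of the pair in every KO library and in WT3, and Htr2c in WT1 and WT2. Htr2c made up 6.95%, 6.53% and 10.9% of the summed receptor FPKM in KO and 36.2%, 18.0% and 15.1% in WT.

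**Figure D3:**
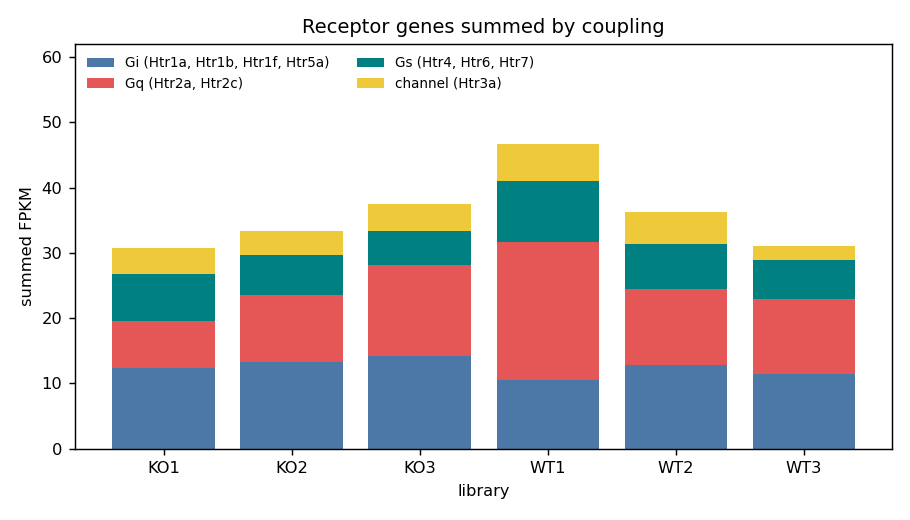
Summed FPKM of the receptor genes in each library (y axis, linear from 0), with KO libraries left of WT libraries and colours for the coupling of the receptor. The Gq-coupled pair reaches 21.0 FPKM in WT1 and lies between 7.22 and 14.0 in the other 5 libraries, while the Gi-coupled genes lie between 10.6 and 14.2 in all 6.

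Of the Gi-coupled receptors, Htr5a and Htr1f were higher and Htr1a and Htr1b were level or lower in KO on average. Htr5a, a receptor expressed broadly in forebrain neurons, lies on chromosome 5 from 27842149 to 27855088 (ENSMUSG00000039106). It was at 5.83, 5.90 and 4.93 FPKM in KO and at 3.33, 4.69 and 3.32 in WT. All KO libraries were above all WT libraries, with KO3 and WT2 closest. The means were 5.55 ± 0.54 and 3.78 ± 0.79 FPKM (SD, n = 3 each), a ratio of 1.47, with a log2 fold change of 0.46 (SE 0.14, 95% interval 0.13 to 0.80, unadjusted p = 0.0125, limma adjusted p = 0.303). It was positive in all 19 alternatives, between 0.27 and 0.60, and had an unadjusted p under 0.05 in 18 of them, the exception being the fit without WT1 and both libraries numbered 3.

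Htr1f encodes the Gi-coupled receptor that the migraine drug lasmiditan activates. The gene (ENSMUSG00000050783) lies on chromosome 16 from 64924729 to 65105854. It was at 1.06, 1.61 and 1.41 FPKM in KO and at 0.332, 0.774 and 0.896 in WT, on 45, 72 and 60 recovered reads in KO and 16, 32 and 39 in WT. All KO libraries were above all WT libraries. The ratio of means was 2.04 and the log2 fold change 0.51 (SE 0.19, unadjusted p = 0.0283, limma adjusted p = 0.320). Because the gene is low, the value depends on the pseudocount, and it was 1.00 with a pseudocount of 0.1 and 1.12 with voom on the reads. With KO2, KO3 or WT1 left out singly, the unadjusted limma p of Htr1f was 0.0979, 0.0736 and 0.0737.

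Htr1a encodes the receptor that inhibits serotonergic neurons from their own cell bodies and, in target areas, hyperpolarizes pyramidal neurons. The gene (ENSMUSG00000021721) lies on chromosome 13 from 105443639 to 105448122. It was at 4.22, 4.15 and 4.22 FPKM in KO and at 4.91, 5.43 and 2.87 in WT. The KO libraries were nearly identical, and the WT libraries lay on both sides of them. The log2 fold change was -0.02 with a 95% interval from -0.47 to 0.43, so these libraries were compatible with a difference in either direction within that interval. It was 0.02 with values scaled to 1 common sum per library.

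Htr1b encodes the receptor that limits transmitter release from axon terminals, and it is high in striatal projection neurons. The gene (ENSMUSG00000049511) lies on chromosome 9 from 81628291 to 81633828. It was at 1.30, 1.62 and 3.65 FPKM in KO and at 2.07, 1.93 and 4.35 in WT. In each group the library numbered 3 was the highest, and these were the libraries with high striatal markers: the dopamine receptor gene Drd2 was at 0.263, 0.453 and 20.6 FPKM in KO and at 2.06, 1.37 and 56.5 in WT. KO over WT, the log2 fold change came to -0.26 (SE 0.33, limma adjusted p = 0.719), and to 0.02 without WT3. The table also lists D430036J16Rik on the opposite strand over Htr1b, at a mean of 1.04 FPKM, and no source used here says whether reads were counted by strand.

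Of the Gs-coupled receptors, Htr6 and Htr4 had lower means in KO and Htr7 did not differ beyond its spread. Htr6, a receptor of striatal and cortical neurons, is on chromosome 4 from 139061108 to 139075570 (ENSMUSG00000028747). It was at 3.07, 2.24 and 2.41 FPKM in KO and at 4.02, 2.48 and 3.52 in WT, with each KO library below the WT library of its number and with overlap between the groups. Its log2 fold change of -0.27 (SE 0.17, limma adjusted p = 0.471) did not pass. Htr7, on chromosome 19 from 35958734 to 36057507 (ENSMUSG00000024798), was at 3.69, 3.38 and 2.41 FPKM in KO and at 4.40, 3.18 and 2.25 in WT. The level was lowest in the library numbered 3 of each group, and the log2 fold change was -0.02 (95% interval -0.52 to 0.47), and 0.02 with values scaled to 1 common sum.

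Htr4, the receptor below the filter, was even in KO and uneven in WT. It was at 0.353, 0.458 and 0.404 FPKM in KO, on 27, 37 and 31 recovered reads, and at 0.987, 1.23 and 0.153 in WT, on 86, 92 and 12 reads. WT1 and WT2 lay above all KO libraries and WT3 below them. Fitted with no filter, Htr4 gave a log2 fold change of -0.29 (SE 0.25, limma adjusted p = 0.709).

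Htr3a marks interneurons that arise in the caudal ganglionic eminence, many of which also make Vip or Cck. The gene (ENSMUSG00000032269) lies on chromosome 9 from 48899213 to 48911099. It was at 4.03, 3.68 and 4.11 FPKM in KO and at 5.70, 4.88 and 2.10 in WT, again with even KO libraries and with WT3 below and WT1 and WT2 above them. Its log2 fold change came to -0.01 (SE 0.27, limma adjusted p = 0.993), with -0.35 without WT3 and 0.21 without WT1, and 0.03 with values scaled to 1 common sum. Of 10 markers of these interneurons, 3 had a positive and 7 a negative log2 fold change, and none passed (0 of 10). At an unadjusted p under 0.05 there were 2 lower, against 7.25% of all genes. They were, named after their values were seen, Sncg, a synuclein gene, at 0.429 to 1.02 FPKM in KO and at 2.27 to 2.51 in WT (log2 fold change -1.01), and the transcription factor gene Nr2f2, at 2.40, 1.07 and 1.79 in KO and at 15.5, 7.96 and 2.28 in WT (log2 fold change -1.54). Their summed FPKM was 111 to 136 in KO and 114 to 131 in WT. Vip, with a log2 fold change of 0.37, was at 17.6, 18.2 and 15.4 FPKM in KO and at 9.71, 17.5 and 12.7 in WT.

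**Figure D4:**
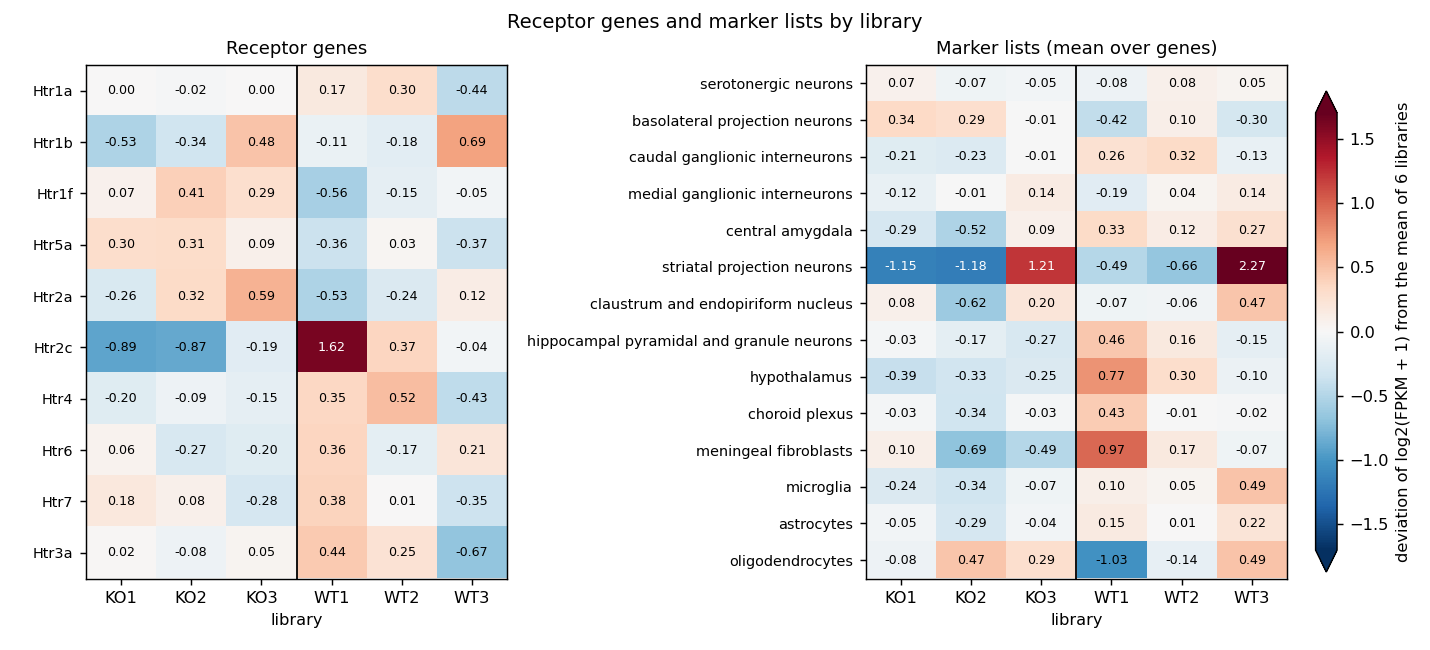
Deviation of each receptor gene (left) and of each marker list averaged over its genes (right) from the mean of the 6 libraries, on log2(FPKM + 1), with KO libraries left of WT libraries and the colour scale ending at 1.7. Htr1b is highest where the striatal list is highest (KO3 and WT3), and Htr3a, Htr1a and Htr4 are lowest in WT3. Htr2c is highest in WT1, where the hypothalamic, meningeal, hippocampal, choroid plexus and central amygdala lists are highest. The basolateral projection neuron, medial ganglionic interneuron, oligodendrocyte and serotonergic neuron lists are lowest in WT1.

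Much of the variation in the set lay between libraries of 1 genotype. Of the 10 genes, 4 had their highest value in WT1 (Htr2c, Htr6, Htr7 and Htr3a) and 5 had their lowest in WT3 (Htr1a, Htr5a, Htr4, Htr7 and Htr3a). Within WT the highest library was between 1.41 times (Htr5a) and 8.08 times (Htr4) the lowest, and within KO between 1.02 times (Htr1a) and 2.80 times (Htr1b). Among 7621 genes with a mean of at least 5 FPKM, Tac1 was most like Htr1b (Pearson r of 0.995 over the 6 libraries). Tac1, a tachykinin gene of striatal neurons, is listed here among the medial ganglionic interneuron markers. It was at 3.39, 4.90 and 19.4 FPKM in KO and at 8.82, 6.41 and 29.4 in WT. Next was BC002163 (r of 0.9935), at 4.20, 4.34 and 6.66 FPKM in KO and at 4.86, 4.89 and 7.61 in WT. The points share their libraries, and with 6 of them such likeness is common: 137 of the 7621 genes had an r above 0.9 with Htr1b, 247 with Htr2c and 417 with Htr5a. The genes most like Htr2c were Mrps2 and Kctd12, and those most like Htr5a were Fbxl20 and Dnajc13.

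**Figure D5:**
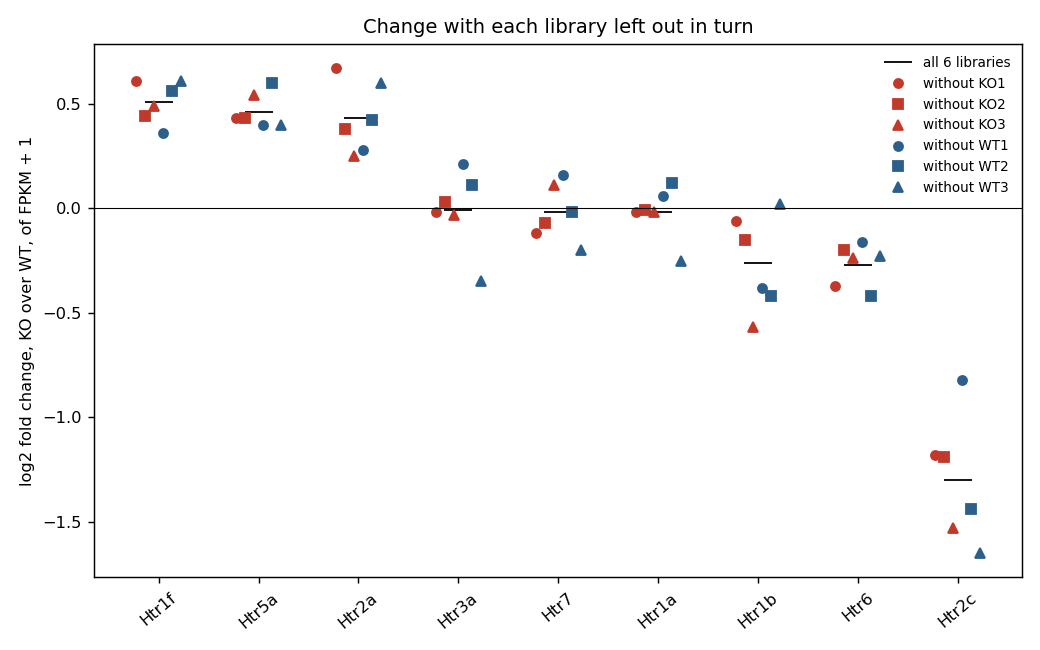
Log2 fold change of KO over WT (y axis, on FPKM + 1) for the 9 tested receptor genes with all 6 libraries (line) and with each library left out in turn (symbols, red for KO and blue for WT). Htr2c and Htr6 stay below 0 and Htr1f, Htr5a and Htr2a stay above 0 throughout. Htr2c comes nearest to 0 without WT1 (-0.82), and Htr3a, Htr7, Htr1a and Htr1b cross 0.

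Of the other 4 listed genes of the family 1 passed the filter. It was Htr5b, an inhibitory receptor gene of rodents, at 1.04, 0.656 and 0.188 FPKM in KO and at 2.02, 2.13 and 0.153 in WT, low in both libraries numbered 3 (log2 fold change -0.48, SE 0.41, limma adjusted p = 0.595). Htr1d, a receptor of axon terminals like Htr1b, was at 0.0571, 0.018 and 0.739 FPKM in KO and at 0.969, 0.39 and 1.68 in WT, highest within each group in the library with high striatal markers. Htr2b reached at most 0.264 FPKM in any library. Htr3b, the partner subunit of Htr3a, had 7 recovered reads in WT3 and 0 in the other 5 libraries, where a count of 0 allows up to 0.0776 FPKM (3 reads, counting error only).

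Serotonin is made outside the amygdala, and 3 of 6 markers of serotonergic neurons were at or near 0. Slc6a4, the serotonin transporter, was listed at up to 0.0134 FPKM in KO and up to 0.0275 in WT, Fev at up to 0.0375 in KO and up to 0.0386 in WT, and Gata3 at 0 in all libraries. Tph2 was detected at a low level: this neuronal enzyme of serotonin synthesis was at 0.952, 0.120 and 0.232 FPKM in KO and at 0.279, 0.694 and 0.391 in WT. The remaining markers, Slc18a2 and Gata2, were present in all libraries and passed the filter. Slc18a2 was at 1.46, 1.29 and 1.66 FPKM in KO and at 1.53, 1.18 and 1.39 in WT. Gata2 was at 1.26, 1.41 and 1.01 FPKM in KO and at 0.802, 1.94 and 2.08 in WT. Of 11 genes for synthesis, transport and breakdown 5 passed the filter and none passed the threshold (0 called, 0 at an unadjusted p under 0.05). The degrading enzyme Maoa was at 7.54, 6.74 and 7.98 FPKM in KO and at 10.2, 7.52 and 9.54 in WT, and Maob at 5.57, 7.30 and 9.36 in KO and at 6.82, 5.64 and 10.1 in WT. Slc29a4, a low-affinity monoamine transporter, was at 2.89, 1.27 and 1.76 FPKM in KO and at 15.8, 4.12 and 2.26 in WT, with its highest value in WT1, as for Htr2c. Ddc, which makes serotonin and dopamine from their precursors, was at 1.62 ± 0.23 FPKM in KO and 1.89 ± 0.43 in WT (SD, n = 3 each).

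Downstream of the receptors, 0 of 66 tested genes on 5 lists of signalling and partner proteins passed the threshold. At an unadjusted p under 0.05 there were 8, or 12.1%, against 14.3% of all genes tested, so the share on these lists was not above the background. The genes of smallest p on each list are given as values. On the Gi and GIRK list 1 of 8 was higher and 1 lower at an unadjusted p under 0.05 (median log2 fold change 0.14, against 0.01 over all genes tested). Kcnj3, a GIRK channel subunit, was at 30.3, 25.9 and 25.6 FPKM in KO and at 18.5, 21.2 and 21.7 in WT, and Gnai2, a Gi alpha subunit, at 46.0, 41.7 and 46.1 in KO and at 60.7, 53.4 and 54.7 in WT, neither with overlap. Gnai1, a close relative of Gnai2 and next by p, was at 84.9 ± 4.46 FPKM in KO and 71.0 ± 9.16 in WT (SD, n = 3 each). On the Gq list 1 of 10 was higher and 0 lower at that level (median 0.27). It was Plcb4, a phospholipase C, at 9.89, 10.5 and 12.4 FPKM in KO and at 3.37, 7.16 and 8.17 in WT. Next by p were the Gq alpha subunit gene Gnaq, at 39.1 ± 2.74 FPKM in KO and 32.6 ± 4.14 in WT, and the protein kinase C gene Prkca, at 21.5 ± 2.26 FPKM in KO and 17.7 ± 3.07 in WT. On the Gs and cyclic AMP list 2 of 16 were higher and 0 lower (median 0.07), namely the adenylyl cyclase genes Adcy2, at 37.2 ± 2.55 FPKM in KO and 28.3 ± 5.62 in WT, and Adcy9, at 19.1 ± 4.60 in KO and 11.6 ± 4.80 in WT (SD, n = 3 each). Adcy1, a cyclase that calcium activates, was at 113, 130 and 88.0 FPKM in KO and at 27.5, 87.3 and 72.0 in WT, without overlap and with its lowest value in WT1 (unadjusted p = 0.0511).

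Among 20 tested receptor kinases, arrestins and RGS proteins, which end receptor signalling, 0 were higher and 2 lower at an unadjusted p under 0.05 (median -0.07; 7.05% and 7.25% of all genes). They were Rgs14, at 10.6 ± 2.43 FPKM in KO and 16.5 ± 4.67 in WT, and Rgs10, at 9.64 ± 2.31 in KO and 13.8 ± 2.77 in WT (SD, n = 3 each), while Rgs6, next by p, was at 6.87 ± 1.09 in KO and 4.79 ± 1.51 in WT. Of 12 receptor partners and regulators 0 were higher and 1 lower (median -0.01). It was S100a10, also called p11, which binds the Htr1b and Htr4 receptors and promotes their surface expression. S100a10 was at 12.5, 14.2 and 13.4 FPKM in KO and at 23.1, 18.5 and 18.1 in WT, with no overlap (log2 fold change -0.53, SE 0.12, unadjusted p = 0.00274, limma adjusted p = 0.302). Adar, an enzyme of the family that edits the Htr2c transcript, was at 24.5, 23.2 and 19.7 FPKM in KO and at 16.8, 22.4 and 14.8 in WT. Dlg4, a postsynaptic scaffold that binds Htr2a and Htr2c, was at 59.2, 53.6 and 47.8 FPKM in KO and at 58.0, 60.8 and 72.8 in WT. Both overlapped between the groups.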

How the data were processed

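Per the labels' protocols, RNA was purified on Qiagen columns and made into libraries by SMARTER mRNA chemistry. The authors deposited FPKM per Ensembl gene. GRCm38 and mm10 are named in the submitters' processing notes, and no source used here names the aligner, counter, annotation version or strand setting. Multiplied by gene length, 100% of values were whole multiples of what 1 read is worth in that library (tolerance 0.01 reads). Those recovered reads give the depth, and no sample column was left unused. The library size that the FPKM imply differed from the recovered reads in every library. It was 16425894 against 17032578 recovered reads in KO1, and 18704824 against 17789798 in WT1. The difference of KO from WT was fitted in limma 3.58.1 (R 4.3.3), on log2(FPKM + 1) for genes with a mean of at least 1 FPKM. The test was two-sided with a variance trend, and p-values were adjusted by Benjamini-Hochberg over all genes tested, at 0.05. The fit was also run on simulated counts. These were drawn without the tissue differences seen between the libraries, so that run does not give the power of the fit here.

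The receptor genes and all lists were chosen with earlier results of these data known. Named genes were the receptors, Cntnap4, the rest of the family, up to 3 tested genes of smallest p on each pathway list, defining markers, and the genes most alike by Pearson's r, of which only some are given. Libraries of the same number deviated together from their group means (correlations over genes of 0.175, 0.145 and 0.33 for numbers 1 to 3), so the numbers were taken as pairs and fitted as a block as an alternative. The labels do not state a pairing, and KO1 correlated more with WT2 (0.283). The p-values cover the spread between libraries, and the floor of 3 reads covers counting error only. No sequence is printed.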

Additional observations from a re-analysis of the deposited data

How the results depend on the processing

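Alternatives were pseudocounts of 0.1 and 0.5, other filters, 2 other scalings, voom, no variance trend, sample weights, the length trend removed, the replicate block, each library left out in turn and, chosen after seeing the data, fits without both libraries numbered 3 and without these and WT1. No receptor was called in any of the 19 (0 in each). Htr2c, Htr5a, Htr1f, Htr2a and Cntnap4 kept their direction in all 19. The alternatives reuse the same libraries or some of them, so they are not independent of one another or of the main fit. The call over all genes was 1 and became 0 with no filter, a filter of 0.5 FPKM, quantile normalization, no variance trend, the length trend removed, the replicate block and both added fits; without single libraries it ranged from 0 to 9, with 9 without WT3 and 0 without each of the others. With the replicate block the call of no receptor changed.

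Values near 0 turned: with 1 common sum Htr1a was at 0.02, Htr7 at 0.02 and Htr3a at 0.03. Htr3a was at 0.02 with the pseudocount of 0.1, at 0.01 with quantile normalization and at 0.09 with the length trend removed, and Htr7 at 0.04 with sample weights and 0.01 with the length trend removed. Without WT1 and both libraries numbered 3, where the lone WT library is assumed to vary like the KO pair, Htr6 was at 0.06 and Htr7 at 0.12. With single libraries left out Htr1a ranged from -0.25 to 0.12, Htr1b from -0.57 to 0.02, Htr7 from -0.20 to 0.16 and Htr3a from -0.35 to 0.21. Depth limits Htr1f and Htr4 most, which averaged 44.0 and 47.5 reads per library.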

Other observations

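The receptors of the other monoamines gave a comparison with a like set. Of 9 adrenergic receptor genes 7 were tested and 0 passed the threshold, with 2 higher and 1 lower in KO at an unadjusted p under 0.05 (median log2 fold change 0.35), against 7.05% higher and 7.25% lower of all genes tested. Adra2c, which restrains noradrenaline release, was at 9.21, 8.74 and 11.2 FPKM in KO and at 16.8, 14.3 and 23.2 in WT. All KO libraries were below all WT libraries. Adra1b, coupled to Gq, was at 8.71, 13.2 and 5.89 FPKM in KO and at 2.88, 4.82 and 5.74 in WT, and Adra1d, of the same kind, at 31.6, 35.9 and 19.5 in KO and at 5.32, 20.2 and 13.8 in WT. Drd1 and Drd2, the tested dopamine receptor genes of 5 listed, were highest in KO3 and WT3, with Drd1 at 2.79, 2.70 and 16.1 FPKM in KO and at 5.08, 3.44 and 25.6 in WT.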
